A study of Homo sapiens with 24 samples.

Results

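The genes described here are the TNF ligand and receptor superfamily members with TNFSF or TNFRSF symbols, the TRAF adaptors, the cIAP ligases BIRC2 and BIRC3, and the NF-kB subunits with their inhibitors. They were taken by symbol and make up 45 of the 15862 genes in the expression table: 16 receptors, 10 ligands (TNF, LTA and LTB among them), 9 adaptors and ligases, 5 NF-kB subunits and 5 genes grouped as inhibitors. The last group holds the IkB family genes and TNFAIP3. It includes the atypical NFKBIZ by family and not by a shown inhibitory effect. They were measured by RNA sequencing of polyadenylated RNA in human leukaemia cell lines, as 24 libraries in 5 groups. LOUCY, a T-cell acute lymphoblastic leukaemia line often used to represent the early T-cell precursor form, and JURKAT, another T-cell acute lymphoblastic leukaemia line, were each sequenced untreated (n = 6). LOUCY cells were also kept for 24 h with 0.05% DMSO as vehicle, with JQ1 at 250 nM, or with I-BET151 at 500 nM (n = 4 each). JQ1, a thienotriazolodiazepine, and I-BET151, a dimethylisoxazole, are inhibitors of the BET bromodomain proteins, which bind acetylated histones. Each group was spread evenly over 2 independent experiments, so that a line is represented by repeated cultures of 1 cell line and the inhibitors were applied to LOUCY only. The labels do not say whether replicates within an experiment were separate cultures, so the p-values measure the spread between these libraries, which may be partly technical.

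TNF superfamily ligands are trimeric proteins, mostly on the cell surface, and bind receptors that either recruit TRAF adaptors directly or carry a death domain. TRAF and cIAP proteins pass the signal on by ubiquitination to the IKK kinases, which mark the inhibitor IkB alpha (NFKBIA) for destruction and so release the RELA, REL and NFKB1 subunits into the nucleus. A slower, non-canonical route runs through stabilisation of the kinase NIK (MAP3K14), which TRAF3 and the cIAPs otherwise keep low, and ends in NFKB2 and RELB. Several of the inhibitors, including NFKBIA and TNFAIP3, are themselves NF-kB target genes. In T cells the costimulatory receptors of the family support survival and proliferation after antigen contact.

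Values are RPKM, reads per gene scaled to gene length and library size, so levels of different genes can be compared per length. The libraries held between 4381134 and 7074198 reads in the listed genes. HEXIM1, a gene known to rise under BET inhibition, was at 19.7 ± 2.21 RPKM (SD, n = 4) with DMSO, 53.1 ± 2.72 with JQ1 and 50.8 ± 7.05 with I-BET151. T-lineage markers were abundant in both lines: the 8 genes checked summed to between 1922 and 2519.5 RPKM in untreated LOUCY and to between 1521 and 1971 RPKM in JURKAT, although CD5 stayed below 1 RPKM in every LOUCY library. In LOUCY the sum fell outside the DMSO range (1611 to 2063 RPKM) with JQ1 (1061 to 1124) and with I-BET151 (837 to 1214), where LCK, CD3E, CD3D, CD3G and ZAP70 passed the test as lower with each inhibitor. The part that this change of the T-lineage genes has in the results below was not tested. Of the 6 myeloid markers, CD14 and FCGR3A were not analysed here, and CSF1R and ITGAM were below 1 RPKM in every library. MPO, the granule peroxidase of myeloid cells, was at 4.94 ± 1.37 RPKM (SD, n = 6) in untreated LOUCY and 0.176 ± 0.169 in JURKAT. It was higher in LOUCY (2.31 on the log2 scale) and lower with JQ1 (-1.28) and I-BET151 (-1.43), and its part in the results below was not tested. MPO was below 1 RPKM in every JURKAT and inhibitor library, so by the filter on low values given below it had to differ. CD68 was lower in LOUCY (-0.47) and did not pass with either inhibitor. Of the B-lineage markers, MS4A1 and PAX5 were below 1 RPKM in every library, whereas CD79A stood at 476 ± 100.5 RPKM (SD, n = 6) in untreated LOUCY and was lower with JQ1 (-0.70) and I-BET151 (-0.86). COL1A1, COL1A2 and KRT8 were below 1 RPKM in every library, and VIM was higher with JQ1 (0.82) and I-BET151 (0.65). The libraries untreated LOUCY replicate 2, DMSO replicate 1 and I-BET151 replicate 1 all of the second experiment, lost signal with rising GC content more steeply than the other 21. Calls of members that change without these libraries are named beside the member.

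Of the 45 genes, 35 reached 1 RPKM in at least 4 libraries of the line comparison or of the LOUCY comparisons and could be tested, 32 of them in both. The other 10 were TNF, LTA, LTB, TNFSF13B, TNFSF14, TNFSF15, TNFRSF9, TNFRSF11A, TNFRSF19 and TRAF1. None of these exceeded 0.883 RPKM in any library. TNF itself, the founding ligand, reached at most 0.350 RPKM (25 reads), in an untreated LOUCY library, and LTB, which forms a membrane heterotrimer with LTA, at most 0.307 RPKM (12 reads). TRAF1, an adaptor induced by NF-kB in activated lymphocytes, had a median of 0.526 RPKM in untreated LOUCY and of 0.140 RPKM in JURKAT. Of the 10 ligands, 6 are therefore among the genes below 1 RPKM throughout. At the other end, the most abundant member in untreated LOUCY was NFKBIA at 58.8 ± 10.2 RPKM (SD, n = 6), followed by TRAF5 (39.3 ± 4.02), TNFSF4 (31.4 ± 5.82), TNFRSF1A (25.7 ± 5.13) and RELA (25.4 ± 5.49). The standard deviations of these last 3 overlap. In JURKAT the highest means were RELA (24.8 ± 4.53), TNFRSF1A (23.1 ± 2.17), TRAF2 (21.2 ± 3.49), TRAF7 (20.5 ± 2.32) and NFKBIA (18.8 ± 2.46), and neighbours in this order differ by less than their SD.

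**Figure D1:**
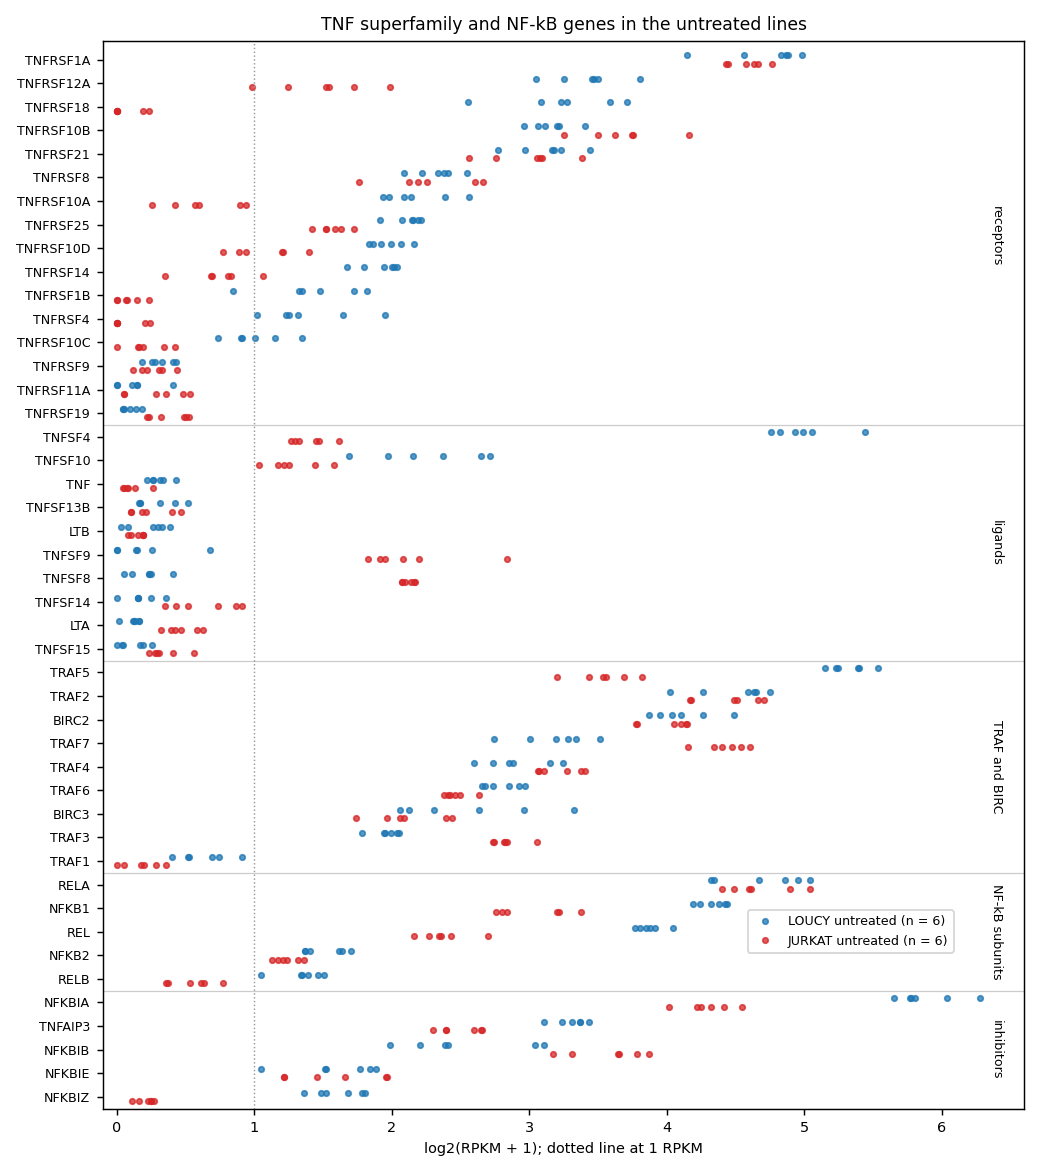
Level of each of the 45 genes on the log2(RPKM + 1) scale in the 6 untreated LOUCY libraries (blue) and the 6 untreated JURKAT libraries (red), 1 point per library, grouped by role and ordered by the LOUCY mean. TNFSF4, TRAF5, NFKBIA, REL and NFKB1 are set apart to the right in LOUCY, TRAF7, TRAF3, TNFSF8 and TNFSF9 in JURKAT, and 10 genes stay left of the dotted line at 1 RPKM in all 12 libraries shown.

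The first comparison asked how the family differed between the untreated lines. TNFSF4, TNFRSF18, TRAF5, NFKBIA, REL and NFKB1 were higher in LOUCY, and TNFSF8, TNFSF9, TRAF7 and TRAF3 were lower. Of 34 members tested, 20 (58.8%) were higher in LOUCY, where 35.5% of all 11978 genes tested were, and 7 (20.6%) were lower, against 37.5% of all genes. These shares do not weigh as support, because 6 members passed the filter on low values through LOUCY alone and had to differ. Of the 24 that passed through both lines, 12 were higher, 5 lower and 7 did not pass. Called members in either direction came to 79.4%, against 73.1% of all genes, which is near the background. The libraries of the lines did not overlap for 24 members, and they did not for 49.4% of all genes. At an unadjusted p under 0.05 the same number of members stood out as after adjustment, 27, against 74.9% of all genes. The test was limma on log2(RPKM + 1) with the experiment as a term and Benjamini-Hochberg adjustment over all genes. Differences below are on that scale, which understates those of low genes.

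Among the receptors, 8 of 12 tested were higher in LOUCY and 1 was lower, beside 35.5% higher and 37.5% lower of all genes. Of the 8, 4 (TNFRSF18, TNFRSF4, TNFRSF1B and TNFRSF10A) passed the filter through LOUCY alone and had to differ. TNFRSF18 (GITR, a costimulatory receptor; chr1:1203508-1206691, − strand, GRCh38) ranged from 4.87 to 12.1 RPKM in LOUCY with a median of 8.54, and from 0 to 0.179 RPKM in JURKAT with a median of 0. The lines did not overlap, and the log2 difference was 3.17 (SE 0.16, limma adjusted p = 5.53e-11). Its neighbour TNFRSF4, the receptor for the ligand TNFSF4 (chr1:1211326-1214138, − strand), showed the same order at a lower level, with 1.03 to 2.87 RPKM in LOUCY and 0 to 0.183 RPKM in JURKAT. In both genes 4 of the 6 JURKAT libraries held no read. TNFRSF12A, the receptor for the cytokine TWEAK (chr16:3018445-3022383, + strand), ranged from 7.26 to 13.0 RPKM (median 10.0) in LOUCY and from 0.975 to 2.97 RPKM (median 1.89) in JURKAT, a log2 difference of 1.92 (SE 0.14, limma adjusted p = 7.84e-09).

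The receptors for TNF itself gave unlike calls. TNFRSF1A, the widely expressed death-domain receptor for TNF (chr12:6328757-6342114, − strand), ranged from 16.7 to 30.6 RPKM (median 27.8) in LOUCY and from 20.6 to 26.2 RPKM (median 23.3) in JURKAT. The lines overlapped, and the log2 difference of 0.13 (SE 0.10) did not pass (limma adjusted p = 0.291). It passed as higher in LOUCY in the first experiment alone (0.24) and without untreated LOUCY replicate 2 of the second experiment (0.22), the only steep-GC library in this comparison. TNFRSF1B, the receptor without a death domain that is found mainly on immune and endothelial cells (chr1:12167003-12209228, + strand), ranged from 0.795 to 2.54 RPKM (median 1.67) in LOUCY and from 0 to 0.175 RPKM (median 0.0506) in JURKAT. It was higher in LOUCY by 1.34 (SE 0.13, limma adjusted p = 2.73e-07). The difference between the 2 receptors was not itself tested.

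The receptors for the death ligand TRAIL (TNFSF10) lie side by side on chromosome 8 and differed in direction. TNFRSF10B, a death receptor, ranged from 6.79 to 9.61 RPKM (median 7.93) in LOUCY and from 8.54 to 16.9 RPKM (median 11.9) in JURKAT. It was lower in LOUCY by a log2 difference of -0.51 (SE 0.13, limma adjusted p = 0.00185), with overlapping libraries, and did not pass in the first experiment alone (-0.23, adjusted p = 0.164). TNFRSF10A, the other death receptor, was higher in LOUCY, at 3.59 ± 0.809 RPKM (SD, n = 6) against 0.554 ± 0.286 in JURKAT. TNFRSF10D, a decoy receptor with a truncated death domain, was higher too, at 2.94 ± 0.347 against 1.12 ± 0.353 RPKM. TNFRSF10C, a decoy receptor without a cytoplasmic part, was too low to be tested in this comparison, with means of 1.03 RPKM in LOUCY and 0.165 RPKM in JURKAT. TNFRSF14, which binds LIGHT (TNFSF14), was higher in LOUCY by 1.17, at 2.78 ± 0.362 against 0.687 ± 0.267 RPKM (SD, n = 6 each). Only 1 of its 6 JURKAT libraries reached 1 RPKM, and 3 did for TNFRSF10D. Without the LOUCY libraries neither would have passed the filter on low values, so these calls do not weigh as support. TNFRSF25, a death-domain receptor of T cells that binds TNFSF15, was higher in LOUCY by 0.55. TNFRSF8 (CD30) and TNFRSF21 differed by 0.06 (SE 0.11) and 0.14 (SE 0.11) and did not pass.

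TNFSF4, the ligand of TNFRSF4, normally carried by activated antigen-presenting cells (chr1:173183734-173207313, − strand), ranged from 26.1 to 42.4 RPKM (median 30.2) in LOUCY and from 1.41 to 2.06 RPKM (median 1.62) in JURKAT. The lowest LOUCY library lay far above the highest JURKAT library, and the log2 difference was 3.60 (SE 0.10, limma adjusted p = 3.7e-14). TNFSF10 was higher in LOUCY as well, at 3.94 ± 1.32 against 1.46 ± 0.341 RPKM (SD, n = 6 each; log2 difference 0.97, SE 0.13). A pair of ligands went the other way and passed the filter through JURKAT alone, so they had to differ. TNFSF9, the ligand of the costimulatory receptor TNFRSF9, averaged 0.168 ± 0.225 RPKM (SD, n = 6) in LOUCY against 3.52 ± 1.33 in JURKAT. TNFSF8, the ligand of TNFRSF8, averaged 0.165 ± 0.101 against 3.35 ± 0.131. Set by receptor and ligand, LOUCY had RNA for both TNFRSF4 and TNFSF4. Both lines had RNA for the TRAIL receptor TNFRSF10B and its ligand TNFSF10, which ranged from 1.05 to 1.99 RPKM in JURKAT. JURKAT had RNA for TNFRSF8 and TNFSF8, while TNFRSF8 in LOUCY stood beside a TNFSF8 level of at most 0.326 RPKM.

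Of the 8 adaptors and ligases tested, 3 were higher and 3 lower in LOUCY, beside 35.5% higher and 37.5% lower of all genes. TRAF5, an adaptor of several costimulatory receptors (chr1:211326615-211374946, + strand), ranged from 34.6 to 45.5 RPKM (median 38.9) in LOUCY and from 8.21 to 13.1 RPKM (median 10.7) in JURKAT, with a log2 difference of 1.78 (SE 0.10, limma adjusted p = 1.63e-10). TRAF3, which restrains the non-canonical route (chr14:102777476-102911500, + strand), ranged from 2.44 to 3.14 RPKM (median 2.93) in LOUCY and from 5.67 to 7.33 RPKM (median 6.06) in JURKAT, a difference of -0.88 (SE 0.08, limma adjusted p = 1.28e-07). In neither gene did the lines overlap. TRAF7, which has no TRAF domain, was lower in LOUCY, with 5.71 to 10.4 RPKM (median 8.44) against 16.8 to 23.3 RPKM (median 20.7) and a difference of -1.24 (SE 0.10, limma adjusted p = 1.55e-08).

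TRAF2, the adaptor that brings the cIAPs to the receptors (chr9:136881912-136926607, + strand), ranged from 15.3 to 25.9 RPKM (median 23.5) in LOUCY and from 17 to 25.1 RPKM (median 21.7) in JURKAT, and the difference of 0.03 (SE 0.10) did not pass. BIRC2 (cIAP1) ranged from 13.6 to 21.4 RPKM (median 15.8) in LOUCY and from 12.7 to 16.7 RPKM (median 15.9) in JURKAT, a difference of 0.12 (SE 0.09) that did not pass. BIRC3 (cIAP2), which neighbours BIRC2 on chromosome 11, ranged from 3.17 to 9.05 RPKM (median 4.58) in LOUCY and from 2.34 to 4.43 RPKM (median 3.22) in JURKAT. It passed at 0.45 (SE 0.13, limma adjusted p = 0.00666), but with overlapping libraries and not in the first experiment alone (0.23). TRAF6 was higher by 0.34 but did not pass in the second experiment alone (limma adjusted p = 0.075). TRAF4 was lower by a difference of -0.31, with overlapping libraries, and did not pass in either experiment alone (largest limma adjusted p = 0.186). Nor did TRAF4 pass without LOUCY replicate 3 or without JURKAT replicate 3 of the first experiment (largest limma adjusted p = 0.0578).

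Of the 5 NF-kB subunits, 4 were higher in LOUCY and RELA did not pass, beside 35.5% higher and 37.5% lower of all genes. REL (chr2:60881521-60931610, + strand), the subunit most restricted to lymphoid and myeloid cells, ranged from 12.6 to 15.5 RPKM (median 13.5) in LOUCY and from 3.48 to 5.50 RPKM (median 4.09) in JURKAT, a difference of 1.5 (SE 0.10, limma adjusted p = 1.3e-09). NFKB1, which encodes p105 and its product p50 (chr4:102501329-102617302, + strand), ranged from 17.3 to 20.7 RPKM (median 19.4) and from 5.75 to 9.36 RPKM (median 7.18), a difference of 1.30 (SE 0.11, limma adjusted p = 2.15e-08). For both genes every LOUCY library lay above every JURKAT library. RELA, the main transactivating subunit (chr11:65653596-65663094, − strand), ranged from 19.0 to 32.0 RPKM (median 26.2) in LOUCY and from 20.1 to 31.9 RPKM (median 23.3) in JURKAT, and the difference of 0.03 (SE 0.09) did not pass.

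The non-canonical subunits were much less abundant. RELB (chr19:45001430-45038198, + strand) ranged from 1.07 to 1.85 RPKM (median 1.59) in LOUCY and from 0.283 to 0.708 RPKM (median 0.491) in JURKAT, a difference of 0.80 (SE 0.10, limma adjusted p = 3.21e-06). Having passed the filter on low values through LOUCY alone, RELB had to differ. NFKB2 (chr10:102394110-102402529, + strand) ranged from 1.58 to 2.26 RPKM (median 1.85) and from 1.19 to 1.57 RPKM (median 1.34). Its difference of 0.28 (SE 0.09, limma adjusted p = 0.0121) did not pass when libraries were rescaled to a common median or in either experiment alone.

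Among the genes grouped as inhibitors, 3 were higher, 1 was lower and 1 did not pass, beside 35.5% higher and 37.5% lower of all genes. NFKBIA (chr14:35401511-35404749, − strand) ranged from 49.2 to 76.7 RPKM (median 54.3) in LOUCY and from 15.2 to 22.4 RPKM (median 18.5) in JURKAT, a difference of 1.59 (SE 0.11, limma adjusted p = 5.09e-09) with no overlap. TNFAIP3 (A20), a ubiquitin-editing enzyme that shuts off signalling upstream of IKK (chr6:137867188-137883312, + strand), ranged from 7.60 to 9.81 RPKM (median 9.12) and from 3.92 to 5.32 RPKM (median 4.66), a difference of 0.80 (SE 0.09, limma adjusted p = 1.14e-06). NFKBIZ, an atypical nuclear IkB protein (chr3:101827991-101861022, + strand), averaged 2.07 ± 0.374 RPKM (SD, n = 6) in LOUCY against 0.160 ± 0.0487 in JURKAT, a difference of 1.39 (SE 0.09, limma adjusted p = 1.54e-09). This gene too passed the filter on low values through LOUCY alone and had to differ. NFKBIB, the gene of IkB beta, was lower in LOUCY at 5.0 ± 1.95 against 11.1 ± 2.17 RPKM (difference -1.05, SE 0.13). NFKBIE, the gene of IkB epsilon, averaged 2.08 ± 0.608 and 2.06 ± 0.722 RPKM and did not pass.

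**Figure D2:**
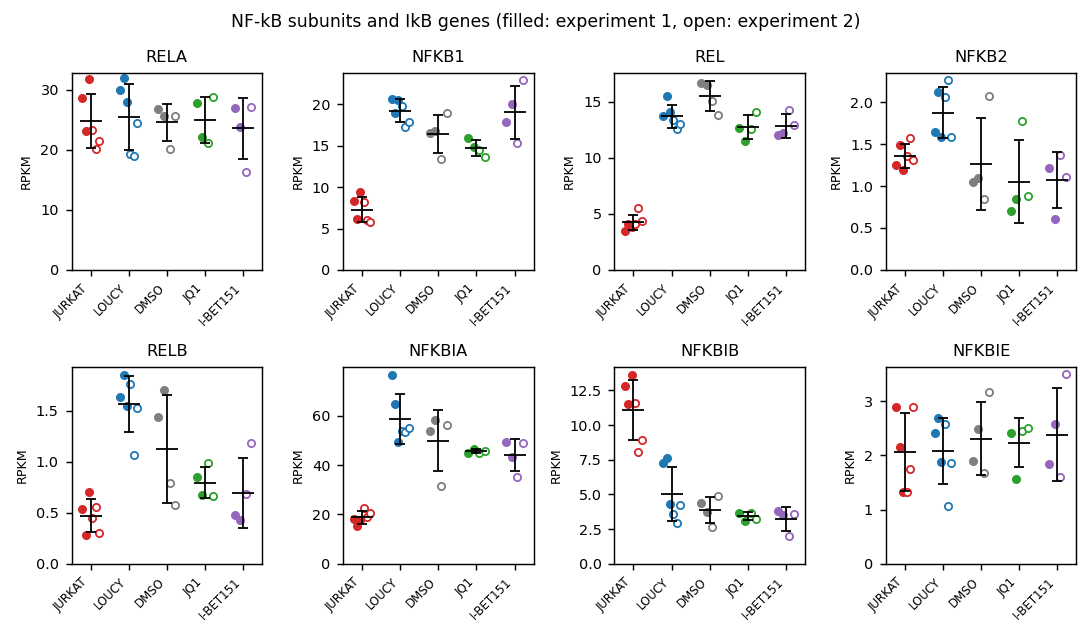
RPKM of the 5 NF-kB subunit genes and of 3 IkB genes in each library of the 5 groups (JURKAT untreated, LOUCY untreated, then LOUCY with DMSO, JQ1 and I-BET151), with group means and SD as black bars, filled points for the first experiment and open points for the second. NFKB1, REL, RELB and NFKBIA sit higher in untreated LOUCY than in JURKAT and NFKBIB lower, while RELA and NFKBIE overlap between the lines, and none of the 8 genes passed the test with either inhibitor.

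Several of these genes are known to be controlled by NF-kB itself, so their start-site regions were searched for the binding motif. RefSeq promoters (GRCh38.p14) were found for 36 of the 45 genes. In the 250 bases before the start of a RefSeq entry, on either strand, the kB consensus was present in 14 of the 36 (38.9%), against 6.28% of all 27305 genes with such an entry. These starts can lie inside the gene by its position in GENCODE release 29. The windows of NFKB2, NFKBIB, TNFRSF14 and TNFAIP3 below lie inside it, as does most of that of REL. NFKB2 and NFKBIZ also have a match in a further entry that is not printed. The windows below are those of the 10 tested members with a match, shown because the motif (capitals) stands beside values that differed between the lines. Where a palindromic match reads on both strands, as in REL and NFKBIB, the capitals cover both matches, and TNFAIP3 has a pair of separate matches.
NFKB1, chr4:102501300-102501329 (+ strand): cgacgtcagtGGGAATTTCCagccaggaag
NFKB2, chr10:102395674-102395703 (+ strand): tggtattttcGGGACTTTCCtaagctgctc
REL, chr2:60881518-60881547 (+ strand): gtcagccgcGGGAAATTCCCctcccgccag
NFKBIA, chr14:35404811-35404840 (− strand): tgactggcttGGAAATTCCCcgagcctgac
NFKBIB, chr19:38899932-38899961 (+ strand): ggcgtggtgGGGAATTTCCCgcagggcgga
NFKBIZ, chr3:101827757-101827786 (+ strand): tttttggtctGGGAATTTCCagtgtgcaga
TNFAIP3, chr6:137867188-137867217 (+ strand): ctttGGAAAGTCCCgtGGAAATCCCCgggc
TRAF3, chr14:102777406-102777435 (+ strand): cgggcgcgccGGGGATTTCCagcgcgcgag
BIRC3, chr11:102317339-102317368 (+ strand): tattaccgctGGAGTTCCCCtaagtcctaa
TNFRSF14, chr1:2556277-2556306 (+ strand): tggactttggGGGGCTCCCCcttctacagg
A match describes letters in a window and is no evidence of binding in these cells.

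A pair of IkB genes with a kB match is shown over the whole 250 bases: NFKBIZ, called lower under each BET inhibitor, and NFKBIA, called under neither. For the reason given with its values below, the NFKBIZ call does not weigh as support, so no contrast of promoters is drawn from the pair. The motif, in capitals, begins 81 bases before the NFKBIA start and 223 bases before the NFKBIZ start.
NFKBIA, chr14:35404750-35404999 (− strand): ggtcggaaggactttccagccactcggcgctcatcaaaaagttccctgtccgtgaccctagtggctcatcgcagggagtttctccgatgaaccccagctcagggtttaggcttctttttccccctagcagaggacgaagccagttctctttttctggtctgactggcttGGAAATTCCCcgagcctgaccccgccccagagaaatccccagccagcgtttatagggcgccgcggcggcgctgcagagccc
NFKBIZ, chr3:101827740-101827989 (+ strand): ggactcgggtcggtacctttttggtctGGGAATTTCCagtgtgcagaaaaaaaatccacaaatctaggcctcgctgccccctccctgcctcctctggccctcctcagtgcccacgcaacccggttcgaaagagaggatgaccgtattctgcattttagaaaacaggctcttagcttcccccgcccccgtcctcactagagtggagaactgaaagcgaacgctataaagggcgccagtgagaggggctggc

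The vehicle comparison set LOUCY kept 24 h with DMSO beside untreated LOUCY. No time is recorded for the untreated libraries, so the solvent cannot be told apart from time or handling. Few genes passed at all: 0.149% of 11411 genes were lower and 0.0263% higher than in untreated LOUCY. Of 33 members tested, 2 were lower with DMSO, both of them TRAIL receptors, and none was higher. At an unadjusted p under 0.05 there were 7 members, against 9.64% of all genes, and the libraries did not overlap for 2 members, against 2.67% of all genes. TNFRSF10B was at 4.89, 4.25, 4.82 and 5.04 RPKM with DMSO (here and below in the order first experiment replicates 1 and 2, second experiment replicates 1 and 2), below the lowest of the 6 untreated libraries (6.79). The log2 difference was -0.64 (SE 0.12, limma adjusted p = 0.0256). TNFRSF10D, given per library although its low level put it outside the rule for such values, was at 1.04, 1.15, 1.35 and 2.06 RPKM, also below the lowest untreated library (2.57), with a difference of -0.73 (SE 0.14, limma adjusted p = 0.0339).

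These calls were near the threshold. TNFRSF10B no longer passed without any 1 of 6 libraries: untreated replicates 1 and 2 and DMSO replicates 1 and 2 of the first experiment, or untreated replicate 3 and DMSO replicate 1 of the second (largest adjusted p = 0.135). TNFRSF10D no longer passed without any 1 of the 3 untreated or 2 DMSO libraries of the first experiment or DMSO replicate 1 of the second (largest adjusted p = 0.16), nor without the 3 steep-GC libraries (adjusted p = 0.092). Both kept their direction. TNFRSF10A, at 2.17 ± 0.916 RPKM with DMSO (SD, n = 4) against 3.59 ± 0.809 untreated, had a difference of -0.56 (SE 0.14) that did not pass (limma adjusted p = 0.126).

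Both inhibitors were compared with the same 4 DMSO libraries, so these comparisons are not independent, and since the doses differed the compounds are set side by side without a test between them. With JQ1, 9 of 33 members (27.3%) were lower, against 15.9% of all genes, and 2 (6.06%) were higher, against 10.1%. With I-BET151, 10 (30.3%) were lower, against 15.9% of all genes, and 2 (6.06%) were higher, against 10.3%. These shares do not weigh as support, because TNFRSF8 and NFKBIZ, lower with each, passed the filter through the untreated and DMSO libraries alone. The members were also chosen with earlier results of these data known. Called members in either direction came to 33.3% with JQ1, where 26% of all genes were called, and to 36.4% with I-BET151, where 26.3% were. Libraries did not overlap for 9 members with JQ1 (28.6% of all genes) and for 10 with I-BET151 (21% of all genes). At an unadjusted p under 0.05 there were 13 members with JQ1 (36.5% of all genes) and 14 with I-BET151 (37.3% of all genes). The median difference of the tested members was -0.14 with JQ1 and -0.15 with I-BET151, and that of all genes -0.01 and 0.00. In bulk RNA, fewer cells expressing a gene and less RNA per cell cannot be told apart.

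**Figure D3:**
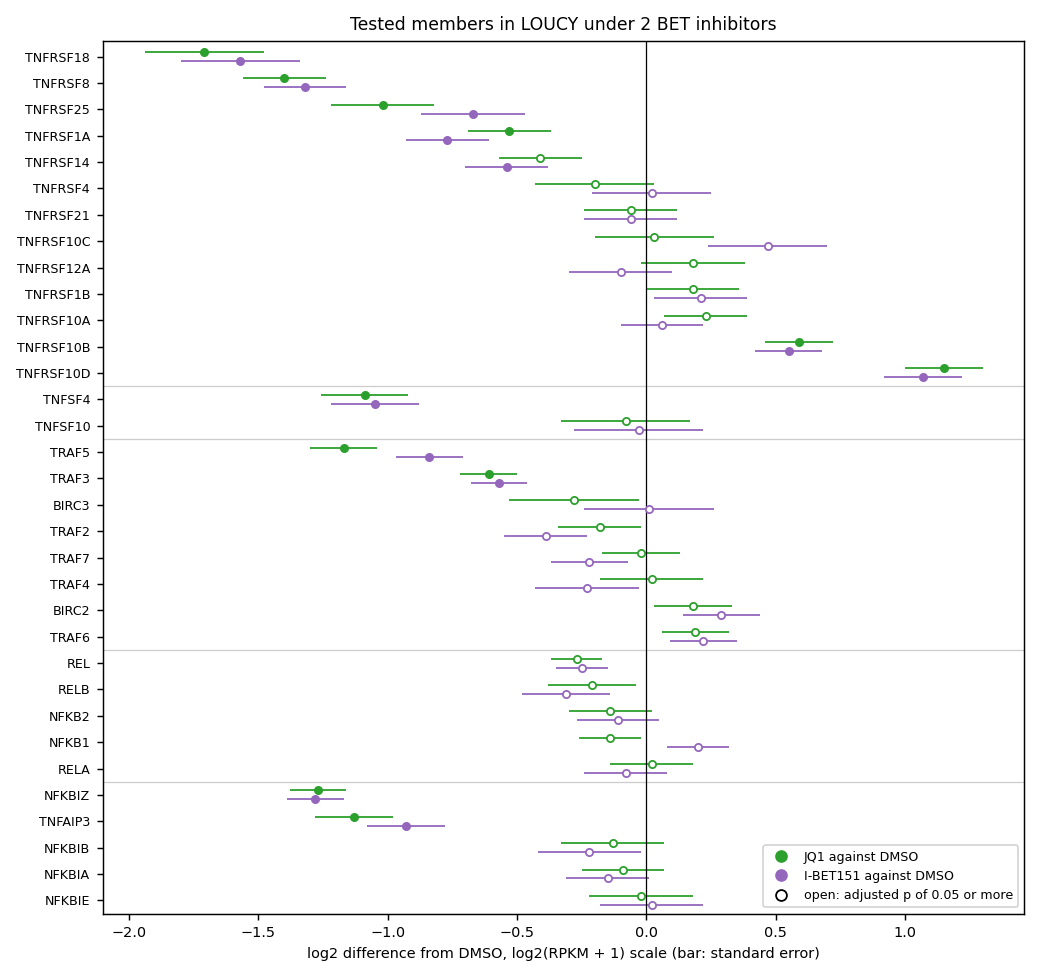
Log2 difference from DMSO of the 33 tested members with JQ1 (green) and I-BET151 (purple), with standard errors as bars, grouped by role and ordered by the JQ1 value, filled where the limma adjusted p was under 0.05. TNFRSF18, TNFRSF8, NFKBIZ, TRAF5, TNFAIP3 and TNFSF4 lie furthest to the left and TNFRSF10D furthest to the right, while all 5 NF-kB subunits have open points.

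Among the receptors, TNFRSF18 and TNFRSF8 had the lowest differences. TNFRSF18 was at 6.32, 6.95, 3.73 and 9.96 RPKM with DMSO, at 1.46, 0.960, 1.09 and 1.62 RPKM with JQ1 and at 1.22, 1.79, 1.44 and 1.54 RPKM with I-BET151. All 8 inhibitor libraries lay below all 4 DMSO libraries. The log2 difference was -1.71 (SE 0.23, limma adjusted p = 2.27e-05) with JQ1 and -1.57 (SE 0.23, limma adjusted p = 6.18e-05) with I-BET151. TNFRSF8, singled out after its values were seen because its level was under the rule's limit, was at 3.28, 2.63, 1.90 and 3.60 RPKM with DMSO. It was at 0.369, 0.104, 0.557 and 0.818 RPKM with JQ1 and at 0.546, 0.584, 0.467 and 0.503 RPKM with I-BET151. No inhibitor library of this gene reached 1 RPKM, and the differences were -1.4 (SE 0.16, limma adjusted p = 3.36e-06) and -1.32 (SE 0.16, limma adjusted p = 7.62e-06). It passed the filter on low values through the untreated and DMSO libraries alone, so these p-values do not weigh as support. TNFRSF4, which neighbours TNFRSF18, was at 1.68 ± 0.794, 1.30 ± 0.540 and 1.63 ± 0.318 RPKM (SD, n = 4 each) with DMSO, JQ1 and I-BET151 and did not pass with either.

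TNFRSF25 and TNFRSF1A were lower with each inhibitor at smaller differences, and TNFRSF14 passed with I-BET151. TNFRSF25 was at 4.34 ± 1.34 RPKM with DMSO, 1.75 ± 1.17 with JQ1 and 2.32 ± 0.620 with I-BET151 (SD, n = 4 each), with differences of -1.02 (SE 0.20, limma adjusted p = 0.000973) and -0.67 (SE 0.20, limma adjusted p = 0.0201). Its libraries overlapped with DMSO in both cases, and the I-BET151 call was lost without any 1 of DMSO replicate 2 or I-BET151 replicate 1 of the first experiment, or DMSO replicate 2 or I-BET151 replicate 1 of the second (largest adjusted p = 0.0864). That call was also lost in either experiment alone, with no experiment term and in a fit of only the 2 groups (largest limma adjusted p = 0.142). TNFRSF1A was at 25.0, 25.1, 18 and 30.1 RPKM with DMSO, at 18, 16.1, 15.6 and 15.9 RPKM with JQ1 and at 17.3, 15.9, 9.59 and 13.5 RPKM with I-BET151. The highest JQ1 library met the lowest DMSO library, whereas the I-BET151 libraries all lay below it. The differences were -0.53 (SE 0.16, limma adjusted p = 0.0203) and -0.77 (SE 0.16, limma adjusted p = 0.00169), and the JQ1 call was lost without JQ1 replicate 2 of the first or DMSO replicate 2 of the second experiment (largest adjusted p = 0.0823).

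TNFRSF14 passed with I-BET151, at -0.54 (SE 0.16, limma adjusted p = 0.0186), and not with JQ1, at -0.41 (SE 0.16, limma adjusted p = 0.0713). With JQ1 it passed as lower in the first experiment alone (-0.45), without the 3 steep-GC libraries (-0.56) and without DMSO replicate 1 of the second experiment (-0.55). The I-BET151 call was lost without any 1 of DMSO replicate 1 or I-BET151 replicate 2 of the first experiment, or DMSO replicate 2 or I-BET151 replicate 1 of the second (largest adjusted p = 0.0745). That call was also lost in the second experiment alone and in a fit of only the 2 groups (largest limma adjusted p = 0.524). TNFRSF1B was at 0.613, 0.897, 0.853 and 1.27 RPKM with DMSO, at 0.953, 0.575, 1.12 and 2.23 RPKM with JQ1 and at 1.14, 0.905, 1.03 and 1.79 RPKM with I-BET151, and did not pass. TNFRSF12A and TNFRSF21 did not pass either, with differences between -0.10 and 0.18.

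The only members that were higher were TRAIL receptors. TNFRSF10D was at 4.46, 2.99, 4.70 and 5.12 RPKM with JQ1 and at 2.74, 4.32, 4.53 and 4.60 RPKM with I-BET151, all above the highest DMSO library (2.06). The differences were 1.15 (SE 0.15, limma adjusted p = 1.91e-05) and 1.07 (SE 0.15, limma adjusted p = 4.64e-05). TNFRSF10B was at 8.43, 7.03, 8.77 and 6.59 RPKM with JQ1 and at 7.89, 9.0, 5.60 and 7.49 RPKM with I-BET151, again above the highest DMSO library (5.04), with differences of 0.59 (SE 0.13, limma adjusted p = 0.00238) and 0.55 (SE 0.13, limma adjusted p = 0.00431). These are also the members that were lower with DMSO than untreated. The vehicle and inhibitor comparisons share the 4 DMSO libraries, with opposite sign, so the 2 sets of calls are not independent. Set beside untreated LOUCY, the inhibitor libraries of TNFRSF10B overlapped the untreated range of 6.79 to 9.61 RPKM, and those of TNFRSF10D ran from within the untreated range of 2.57 to 3.48 RPKM to above it. Treated and untreated cells were not tested against each other. TNFRSF10A and TNFRSF10C did not pass with either inhibitor. With I-BET151 TNFRSF10C differed by 0.47 (SE 0.23, limma adjusted p = 0.139), and it passed as higher without the 3 steep-GC libraries (0.78) and without I-BET151 replicate 1 of the second experiment (0.72). The ligand TNFSF10 differed by -0.08 (SE 0.25) and -0.03 (SE 0.25).

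**Figure D4:**
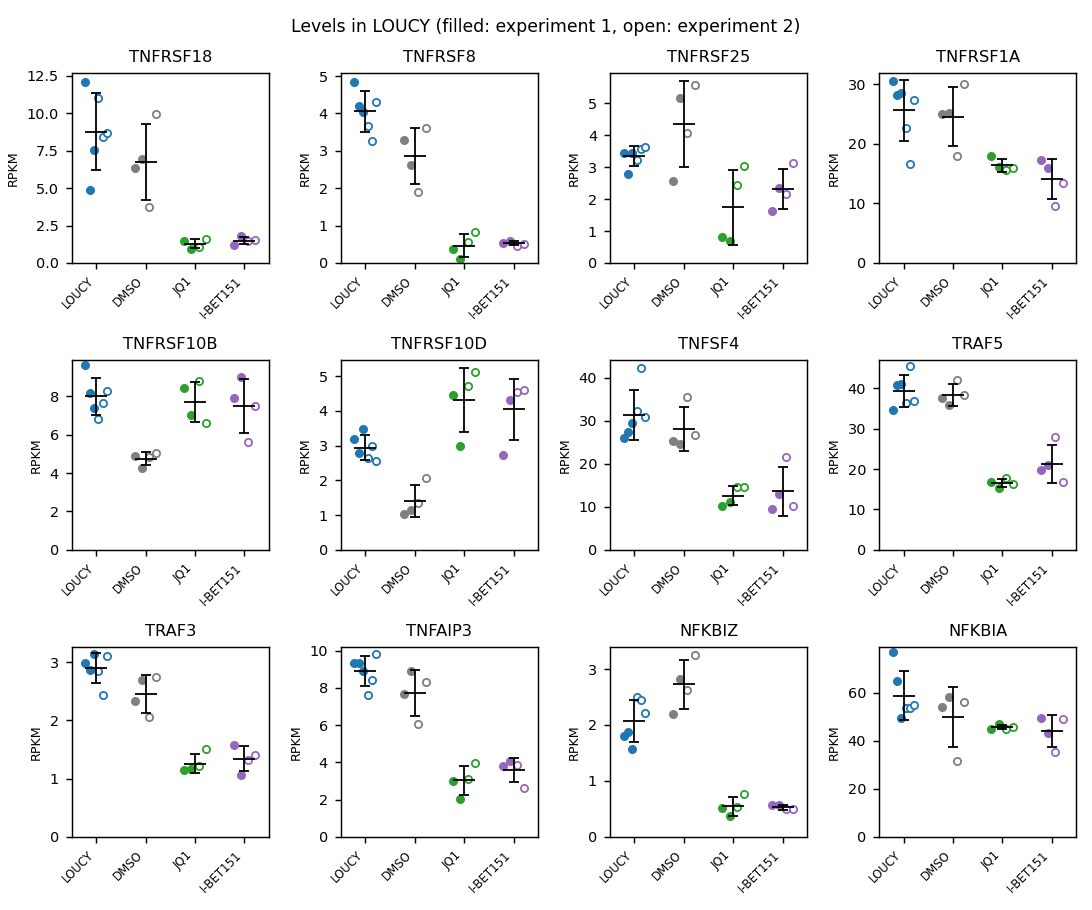
RPKM of 12 members in each LOUCY library, untreated (labelled LOUCY, n = 6) and with DMSO, JQ1 or I-BET151 (n = 4 each), with group means and SD as black bars, filled points for the first experiment and open points for the second. TNFRSF18, TNFRSF8, TRAF3, TRAF5, TNFAIP3, TNFSF4 and NFKBIZ drop below all DMSO points with each inhibitor, TNFRSF10B and TNFRSF10D dip with DMSO and stand higher with the inhibitors, and NFKBIA overlaps.

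Of the ligands tested in LOUCY, TNFSF4 was lower with each inhibitor. It was at 25.2, 24.7, 35.6 and 26.6 RPKM with DMSO, at 10.2, 11.1, 14.6 and 14.5 RPKM with JQ1 and at 9.44, 12.9, 21.7 and 10.3 RPKM with I-BET151. No inhibitor library reached the lowest DMSO library, and the highest I-BET151 value came from replicate 1 of the second experiment, 1 of the 3 libraries with a steep GC trend. The differences were -1.09 (SE 0.17, limma adjusted p = 8.4e-05) and -1.05 (SE 0.17, limma adjusted p = 0.000139). All treated values stayed above the JURKAT maximum of 2.06 RPKM.

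Among the adaptors, TRAF5 and TRAF3 were lower and the other 6 tested did not pass, beside 15.9% lower of all genes with each inhibitor. TRAF5 was at 37.5, 35.8, 42.2 and 38.3 RPKM with DMSO, at 16.7, 15.3, 17.7 and 16.3 RPKM with JQ1 and at 19.8, 20.9, 27.9 and 16.7 RPKM with I-BET151, with no overlap. The differences were -1.17 (SE 0.13, limma adjusted p = 1.69e-06) and -0.84 (SE 0.13, limma adjusted p = 7.37e-05). TRAF3 was at 2.34, 2.69, 2.05 and 2.74 RPKM with DMSO, at 1.15, 1.16, 1.22 and 1.5 RPKM with JQ1 and at 1.58, 1.06, 1.31 and 1.4 RPKM with I-BET151, again with no overlap. The differences were -0.61 (SE 0.11, limma adjusted p = 0.000481) and -0.57 (SE 0.11, limma adjusted p = 0.00103). TRAF2 was at 24.8, 23.9, 15.8 and 24.9 RPKM with DMSO, at 21.7, 16.9, 18.5 and 20.5 RPKM with JQ1 and at 21.2, 18.2, 11.6 and 16.6 RPKM with I-BET151. Its groups overlapped and it did not pass with JQ1 (-0.18) or I-BET151 (-0.39, SE 0.16, limma adjusted p = 0.085). Without the 3 libraries with a steep GC trend it passed as lower with each.

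The cIAP genes did not pass. BIRC2 was at 18.1, 16.5, 23.3 and 14.7 RPKM with DMSO, at 19.4, 21.8, 19.5 and 21.3 RPKM with JQ1 and at 17.9, 20.7, 31.3 and 20.2 RPKM with I-BET151, with differences of 0.18 (SE 0.15) and 0.29 (SE 0.15). Its JQ1 value passed as higher without the 3 steep-GC libraries. BIRC3 was at 4.86, 3.54, 5.91 and 3.97 RPKM with DMSO, at 2.79, 3.81, 4.56 and 3.12 RPKM with JQ1 and at 2.99, 3.96, 10.4 and 3.1 RPKM with I-BET151. A single I-BET151 library, again replicate 1 of the second experiment, stood far above the rest.

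The genes grouped as inhibitors of NF-kB were split between 2 that were lower and 3 that did not pass, beside 15.9% lower of all genes with each compound. What these changes do to NF-kB activity was not tested. NFKBIZ, also singled out after its values were seen, was at 2.20, 2.82, 2.63 and 3.25 RPKM with DMSO. It was at 0.510, 0.366, 0.534 and 0.770 RPKM with JQ1 and at 0.567, 0.559, 0.492 and 0.491 RPKM with I-BET151. Every inhibitor library was below 1 RPKM and every DMSO library above 2 RPKM, with differences of -1.27 (SE 0.11, limma adjusted p = 1.76e-07) and -1.28 (SE 0.11, limma adjusted p = 1.56e-07). As with TNFRSF8, the filter was passed through the untreated and DMSO libraries alone, so these p-values do not weigh as support. TNFAIP3 was at 7.65, 8.92, 6.05 and 8.32 RPKM with DMSO, at 3.0, 2.03, 3.11 and 3.95 RPKM with JQ1 and at 3.78, 4.05, 3.85 and 2.61 RPKM with I-BET151. The groups did not overlap, and the differences were -1.13 (SE 0.15, limma adjusted p = 2.21e-05) and -0.93 (SE 0.15, limma adjusted p = 0.000173). NFKBIA was at 54.0, 58.3, 31.4 and 56.1 RPKM with DMSO, at 44.8, 46.7, 45 and 45.8 RPKM with JQ1 and at 49.3, 43.2, 35.1 and 48.9 RPKM with I-BET151. Of its 4 DMSO libraries, 3 lay above all inhibitor libraries and the other lay below them, and the differences of -0.09 (SE 0.16) and -0.15 (SE 0.16) did not pass. NFKBIB and NFKBIE did not pass, with differences between -0.22 and 0.02.

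None of the 5 subunits passed with either inhibitor, and 1 of the 5 did at an unadjusted p under 0.05 in each comparison, REL. Of all genes, 26% passed with JQ1 and 26.3% with I-BET151, and 36.5% and 37.3% at an unadjusted p under 0.05. REL was at 16.7, 16.5, 15.1 and 13.8 RPKM with DMSO, at 12.7, 11.5, 12.6 and 14.1 RPKM with JQ1 and at 12, 12.2, 14.3 and 12.9 RPKM with I-BET151. The differences were -0.27 (SE 0.10, limma adjusted p = 0.06) and -0.25 (SE 0.10, limma adjusted p = 0.077), and REL passed as lower with each inhibitor in the first experiment alone and without the 3 steep-GC libraries. NFKB1 was at 16.5, 16.8, 13.4 and 18.9 RPKM with DMSO, at 15.9, 14.9, 14.5 and 13.6 RPKM with JQ1 and at 17.9, 20.0, 15.3 and 22.9 RPKM with I-BET151. RELA was at 26.9, 25.6, 20.1 and 25.7 RPKM with DMSO, at 27.8, 22.2, 21.1 and 28.8 RPKM with JQ1 and at 27.0, 23.8, 16.3 and 27.2 RPKM with I-BET151. For both, DMSO and inhibitor libraries overlapped. The differences of NFKB1 were -0.14 (SE 0.12) and 0.20 (SE 0.12), and those of RELA 0.02 (SE 0.16) and -0.08 (SE 0.16). NFKB2 and RELB stayed at or below 2.07 RPKM in every treated library. RELB, at 1.13 ± 0.533 RPKM with DMSO, 0.794 ± 0.154 with JQ1 and 0.693 ± 0.341 with I-BET151 (SD, n = 4 each), did not pass, though it did as lower in the first experiment alone with each inhibitor.

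Read by promoter, the members called lower with JQ1 were 3 of the 10 tested genes with a kB match (TRAF3, NFKBIZ and TNFAIP3) and 6 of the 15 with a promoter entry and no match (TNFRSF18, TNFRSF25, TNFRSF8, TNFSF4, TRAF5 and TNFRSF1A). With I-BET151 they were 4 of 10 (the same names with TNFRSF14) and the same 6 of 15. Of all genes, 15.9% were lower with each inhibitor. The difference between members with and without a match was not tested. NFKBIA and NFKBIZ, whose start regions are printed above, each carried a kB match, with RNA that did not pass in the first and was lower in the second. The NFKBIZ call does not weigh as support, and the difference between these genes was not tested.

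Other genes of the pathway came from 3 further lists. The lists were chosen with earlier results of these data known, so counts from them do not weigh as support. Of 12 superfamily genes under other symbols, 6 were in the table and 3 were tested: RELT and CD70 were higher in LOUCY than in JURKAT and the death receptor FAS was lower. CD70 lay close to the filter, and its lines overlapped (0.737 to 2.17 RPKM in untreated LOUCY, 0 to 1.30 RPKM in JURKAT). FAS was lower with JQ1 (-0.83, SE 0.23, limma adjusted p = 0.0123) and with I-BET151 (-0.71, SE 0.23, limma adjusted p = 0.0285), and RELT and CD70 did not pass. Of 36 signalling enzymes and adaptors, 34 were tested between the lines, with 19 higher and 9 lower in LOUCY, beside 35.5% and 37.5% of all genes. CASP10, an initiator caspase of death receptors, had the largest of these differences that are named here (2.46, SE 0.09), beside the kinase IKBKE (1.24, SE 0.12). In this list CFLAR and MAP3K8 passed the filter on low values through LOUCY alone and MAP3K5 through JURKAT alone, and had to differ. With JQ1, 2 of 33 were higher (TRADD, MAP3K14) and 2 lower, IKBKE among them, beside 10.1% higher and 15.9% lower of all genes. With I-BET151, 3 were higher (BCL10, TRADD, MALT1) and 3 lower, IKBKE and CASP10 among them, beside 10.3% and 15.9% of all genes. MAP3K14, the kinase of the non-canonical route that TRAF3 restrains, rose by 0.36 (SE 0.13, limma adjusted p = 0.0444) with JQ1, and its I-BET151 difference of 0.33 (SE 0.13) did not pass (limma adjusted p = 0.0647).

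Of 27 textbook NF-kB target genes outside the family, 19 were in the table and 13 were tested in LOUCY. This list too was chosen with earlier results of these data known, so its shares do not weigh as support. With JQ1, 7 of the 13 were lower (CCND2, CCR7, STAT5A, ICAM1, BCL2L1, CD83 and MYB) and 1 was higher (GADD45B), with a median difference of -0.58, where 15.9% of all genes tested were lower and 10.1% higher. With I-BET151, 8 were lower (the same names with BCL2A1) and 2 higher (CD69 and GADD45B), with a median of -0.71, where 15.9% of all genes were lower and 10.3% higher. ICAM1, an adhesion receptor, was at 8.19 ± 2.05 RPKM with DMSO, 3.06 ± 0.981 with JQ1 and 2.96 ± 0.506 with I-BET151 (SD, n = 4 each). GADD45B, a stress-response gene, was at 5.15 ± 1.51, 13.1 ± 2.01 and 13.0 ± 2.54 RPKM. Between the lines 7 of 13 tested were higher in LOUCY and 2 lower, beside 35.5% and 37.5% of all genes. Those higher included CCR7 and STAT5A by more than 4 on the log2 scale. CCR7 was below 1 RPKM in every JURKAT library, so it passed the filter on low values through LOUCY alone and had to differ.

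Strand was not kept by the library method, and some members share exon bases with another gene. In GENCODE release 29, TNFRSF25 shares 383 of its 4283 exon bases with ESPN and 104 with PLEKHG5, TNFRSF10B 67 of 5158 with RHOBTB2, NFKBIB 40 of 2324 with SIRT2, and REL 5702 of 13170 with the transcript AC010733.2. Further overlaps were with genes outside the expression table. TRAF7 shares 950 of 4489 exon bases with CASKIN1, TNFRSF14 831 of 6219 with TNFRSF14-AS1, and TRAF4 490 of 4596 with AC010761.4. TNFRSF10C shares 485 of 1868 with AC107959.4, and TNFRSF10A 266 of 2951 with AC100861.1. Not every overlap is listed. ESPN stayed below PLEKHG5 in mean level in every group. PLEKHG5 was itself lower with JQ1 (-0.38) and I-BET151 (-0.43). SIRT2 was higher with JQ1 (0.77) and I-BET151 (0.81) while NFKBIB did not pass, and RHOBTB2 did not pass with either while TNFRSF10B was higher. The share of reads counted to one or the other gene was not tested.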

How the data were processed

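The authors deposited 1 table of RPKM values per gene for 24 libraries (Smart-seq2 complementary DNA, Nextera XT libraries, per the labels' protocols). The submitters' processing notes name STAR 2.5.1b, featureCounts of Subread 1.4.5-p1, edgeR 3.10.5 and hg38; settings and annotation are not given in sources used here. RPKM values came out as whole reads times 1 step per gene (tolerance 0.01 reads) in 100% of genes, which gave the depths. Values were tested as log2(RPKM + 1) with limma 3.58.1 in R 4.3.3, on genes that reached 1 RPKM in 4 or more of the fitted libraries, with an additive experiment term, a mean-variance trend, two-sided tests and Benjamini-Hochberg adjustment over all genes at 0.05. The lines were fitted on 12 libraries and the LOUCY groups on 18. The step was tested on simulated data. Values in every library were given for called members of at least 5 RPKM in the higher group (up to 8 a direction) and for a fixed panel. Alternatives changed the pseudocount, filter, scaling, experiment term, block, trend and libraries used. Same-numbered libraries were not treated as pairs. Members and lists were chosen with earlier results of these data known. Protein sequences were not used here. The values of 1 signalling gene outside the family are not reported here.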

Additional observations from a re-analysis of the deposited data

Results flagged for a closer look

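In 8 of 150 group values tested (35 or fewer members in each of the 5 groups, at a group mean of 1 RPKM or more), 1 library stood apart from the rest of its group by Dixon's test, and chance alone would mark about 1 in 20. Of the 8, 3 were low values in DMSO replicate 1 of the second experiment, 1 of the libraries with a steep GC trend: NFKBIA at 31.4 RPKM where the other 3 ranged from 54.0 to 58.3, TNFRSF21 at 4.01 RPKM against 7.08 to 7.65, and TRAF2 at 15.8 RPKM against 23.9 to 24.9. BIRC3 stood high at 10.4 RPKM in I-BET151 replicate 1 of the second experiment, against 2.99 to 3.96 in the others, and that library also has a steep GC trend. TNFRSF10D was low at 2.74 RPKM in I-BET151 replicate 1 of the first experiment, against 4.32 to 4.60. NFKBIE was low at 1.56 RPKM in JQ1 replicate 2 of the first experiment, against 2.41 to 2.5. In JURKAT, TRAF3 was high at 7.33 RPKM in replicate 3 of the first experiment, against 5.67 to 6.15, and TNFSF9 was high at 6.14 RPKM in replicate 2 of the second, against 2.55 to 3.58. The part of GC content in these values was not tested.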

How the results depend on the processing

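No member changed direction past the threshold under any alternative run. Among the counts of called members, those between the lines moved by more than 1.5 times at a filter of 5 RPKM (9 higher) and with no filter (11 lower), where the sets of genes tested differ. The 2 members lower with DMSO became 1 with no filter, a filter of 5 RPKM, rescaled libraries, no experiment term, the first experiment alone or without the 3 steep-GC libraries. They became 0 in the second experiment alone and in a fit of only the 2 groups, and between 0 and 2 with each library left out in turn. With the replicate block, which puts same-numbered libraries of an experiment together, the count was 0, and no other count of members moved by over 1.5 times. Of 18 same-numbered pairs, 5 correlated above 0.1 (from -0.645 to 0.776). Where both groups had 2 libraries an experiment, the values of its same-numbered pairs are equal by construction. The 18 values are therefore not independent and do not decide whether the numbers mark pairs. At 5 RPKM the JQ1 counts were 5 lower and 1 higher and the I-BET151 counts 5 lower and 1 higher. In the second experiment alone they were 4 lower and 1 higher with JQ1 and 3 lower and 1 higher with I-BET151, with 2 libraries a group. Calls lost there with each inhibitor were TNFAIP3, TNFRSF10B, TNFRSF1A, TNFRSF25, TNFSF4 and TRAF3, and with I-BET151 also TNFRSF14 and TRAF5. With each library left out, 8 to 10 members were lower with JQ1 and 8 to 11 with I-BET151. The term for a difference between experiments passed for no member (smallest limma adjusted p = 0.505). Read depth limits the low members: TNFRSF8 rested on as few as 2 reads in a JQ1 library and NFKBIZ on 8.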
